A study of Mus musculus with 10 samples.

Results

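De novo lipogenesis, the synthesis of fatty acids from sugar-derived carbon, was examined in mouse liver through 10 genes: Acly, Acaca, Fasn, Me1, Scd1, Elovl6, Pnpla3, Thrsp, Srebf1 and Mlxipl. They were chosen by name as enzymes and regulators of the pathway, out of 54532 genes in the deposited data. The rule used no expression value, but earlier results of these data were known when the genes were chosen. Each of the 10 was found, and all 10 passed the filter on low reads. Livers came from 10 mice on high fat diet (HFD), sequenced in search of hormones that a liver overexpressing the stress kinase ASK1 might release to raise energy use. The 5 control littermates (ASK1f/f) and the 5 ASK1+hep mice were on a C57BL/6J background. The ASK1f/f construct is a murine ASK1 cDNA in the ROSA26 locus behind a lox-stop-lox cassette. ASK1+hep mice came from a cross of homozygous carriers with Alb-Cre mice, in which the albumin promoter drives removal of the stop cassette in hepatocytes, and how many copies of the construct they carried is not given in the sources used here. A group with Alb-Cre alone was not analysed here, so Cre and ASK1 cannot be told apart as sources of a genotype difference. HFD began at 6 weeks of age and lasted 7 weeks, and mice were fasted for 5 h before the liver was taken. Each liver came from a different animal.

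In hepatocytes, citrate exported from mitochondria is cleaved to acetyl-CoA, carboxylated to malonyl-CoA and built into palmitate, with NADPH as the reducing agent. Palmitate is then elongated and desaturated before it enters triglycerides. After a meal, insulin acting through the transcription factor SREBP-1c and glucose acting through ChREBP raise the enzymes of this pathway together, and fasting lowers them.

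Expression was given as FPKM, reads per gene scaled by gene length and library size, with 13367742 to 16163378 reads on genes per library. Map3k5, the gene of ASK1, measured 6.74, 6.88, 5.77, 4.71 and 19.8 FPKM across libraries with the ASK1f/f label, in order of replicate number. Libraries with the ASK1+hep label measured 16.4, 11.1, 7.68, 12.4 and 15.2 FPKM. The library labelled ASK1f/f replicate 5 had the highest Map3k5 value of all, against its label, so genotype differences below were also taken without it. In this library Fgf21 was at 3.21 FPKM, below every ASK1+hep liver. Pklr was at 56.4 FPKM, above every ASK1+hep liver, and Elovl3 at 157 FPKM, within the range of the ASK1+hep livers. Both were picked for a low p with this library counted as a control. Whether its label is right was not tested. A second library stood apart by its overall profile. In ASK1+hep replicate 3, 10.9% of reads lay on mitochondrial genes, against 4.19% to 6.74% in the other livers. The median distance of a gene from its own median over the 10 livers was 0.249 on the log2 scale there, against 0.0764 to 0.143. Deviations of genes in this library ran with gene length (Spearman rho = -0.325 across 13306 genes) and with GC content (rho = 0.340), and the opposite held for ASK1+hep replicate 5 (0.313 and -0.495), with genes not being independent replicates. ASK1+hep replicate 4 had trends similar to those of replicate 3 (-0.343 and 0.279). Of the hepatocyte markers, Alb was at 14692 to 25083 FPKM and Cyp2e1 at 2749 to 3978 FPKM. Cps1 was at 454 to 583 FPKM in controls and at 519, 316, 94.9, 295 and 616 FPKM in ASK1+hep replicates 1 to 5. Ttr was at 3336 to 4209 FPKM in controls and at 4269, 5635, 8129, 5864 and 3758 FPKM in the ASK1+hep replicates. Replicate 3 also had the highest Apoa1 (17107 FPKM). Of the adipocyte markers, Adipoq, Lep, Retn and Plin1 did not exceed 0.0526 FPKM in any liver, while Cfd ranged from 3.78 to 160 FPKM. Erythroid markers summed to 333 to 490 FPKM in controls and 324 to 1053 FPKM in ASK1+hep livers, with 4 of 5 higher on average. At an unadjusted p under 0.05 (limma) were 2 of these 5 and 1 of the 5 hepatocyte markers, where 5.77% of all genes tested were. Kupffer cell markers summed to 79.6 to 136 FPKM in controls against 51.1 to 127 FPKM in ASK1+hep livers, with 0 of 5 higher in mean log2 value. Among them, Marco was at 1.95 to 5.43 FPKM in controls and at 1.58 to 6.46 FPKM in ASK1+hep livers. The part of these differences in the results below was not tested.

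Between genotypes, 0 of 13306 genes (0.0%) passed an adjusted p of 0.05 in limma with Benjamini-Hochberg adjustment, so none of the lipogenesis genes could be called higher or lower in ASK1+hep livers. Among the 10, log2 fold changes of FPKM + 1 ran from -0.56 to 0.27 with a median of -0.064, beside a median of -0.0065 over all genes tested. Acly, Acaca, Pnpla3, Thrsp, Srebf1 and Mlxipl had a lower mean log2 value in ASK1+hep livers, and Fasn, Me1, Scd1 and Elovl6 a higher one, although with scaling by all reads Fasn (-0.011) and Scd1 (-0.038) also turned lower. At an unadjusted p under 0.05, 1 of the 10 was lower, namely Acly, where 2.72% of all genes tested were, and 0 of the 10 were higher, where 3.05% were. In none of the 10 were the genotypes fully separated, where 0.466% of all genes tested lay wholly lower and 0.398% wholly higher in ASK1+hep livers, 0.864% together. Without the library labelled ASK1f/f replicate 5, log2 fold changes of the 10 ran from -0.73 for Thrsp to 0.30 for Elovl6, and that of Acaca turned to 0.052. In whole liver, fewer cells of a type and less RNA per cell cannot be told apart.

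**Figure D1:**
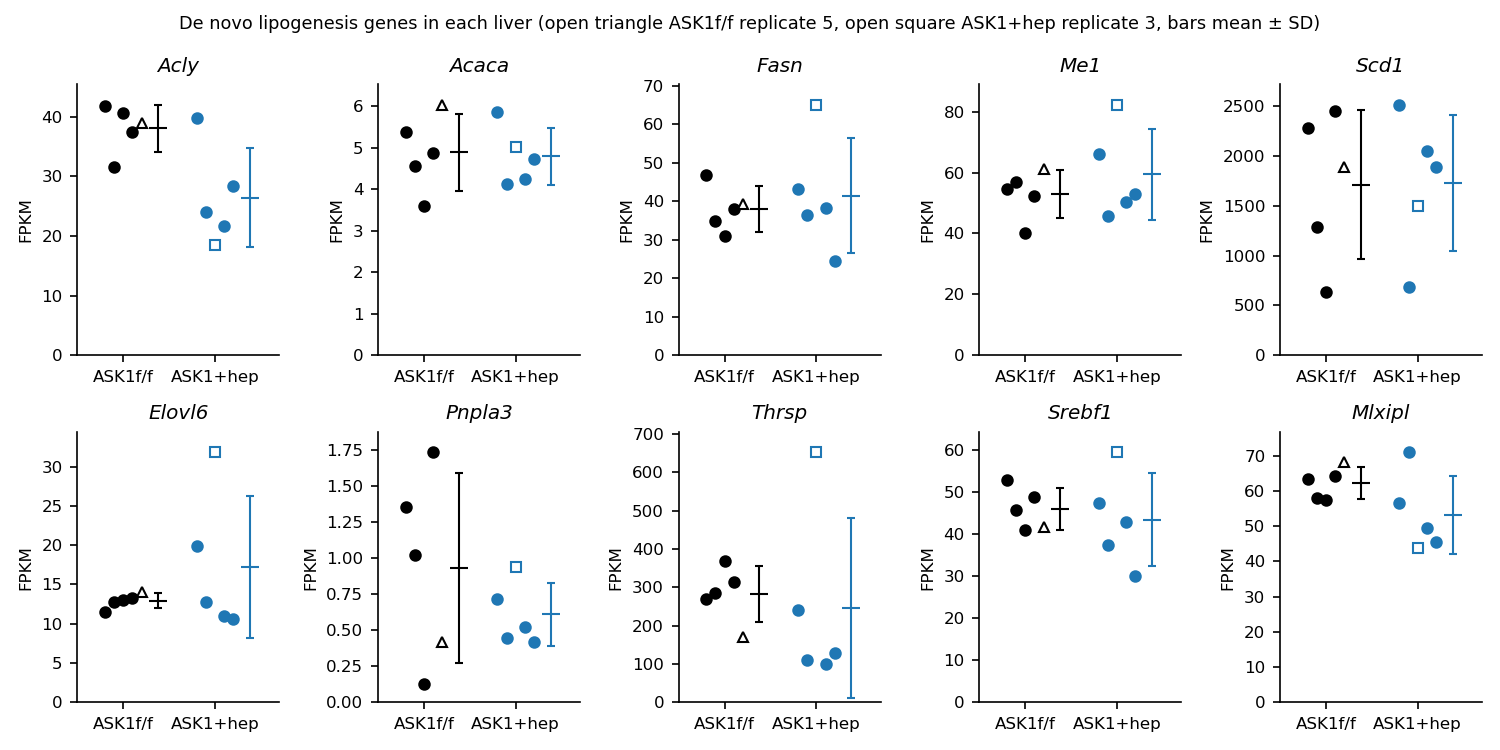
FPKM of the 10 lipogenesis genes (y axes, each from 0) in each liver of ASK1f/f (black) and ASK1+hep (blue) mice, with mean ± SD beside the points (n = 5 per genotype). The open square, ASK1+hep replicate 3, is the highest liver for Fasn, Me1, Elovl6, Thrsp and Srebf1 and the lowest for Acly and Mlxipl, and the open triangle is the library labelled ASK1f/f replicate 5.

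Per gene length, Scd1 was by far the most expressed of the 10, with a median of 1896 FPKM over the 10 livers, and Thrsp followed with a median of 256 FPKM. Scd1 was above Thrsp in 10 of 10 livers and Thrsp above the remaining 8 genes in 10 of 10. Mlxipl (median 57.7 FPKM), Me1 (53.8 FPKM), Srebf1 (44.4 FPKM), Fasn (38.0 FPKM) and Acly (34.6 FPKM) formed a middle tier whose ranges overlapped from each gene to the next. Mlxipl and Me1 could not be ordered, since Mlxipl was higher in only 6 of 10 livers. Elovl6 (12.9 FPKM), Acaca (4.79 FPKM) and Pnpla3 (0.622 FPKM) had lower medians. The range of Elovl6 still overlapped that of Acly, which was higher in 9 of 10 livers. Elovl6 exceeded Acaca, and Acaca exceeded Pnpla3, in 10 of 10 livers without overlap of their ranges. Summed over the 10 genes, expression per gene length was 1235 to 3032 FPKM in controls against 1028 to 3039 FPKM in ASK1+hep livers, and Scd1 made up 51.7% to 86.6% of it. Leaving out Scd1, the sum was 440 to 597 FPKM in ASK1f/f livers and 318 to 961 FPKM in ASK1+hep livers, with ASK1+hep replicate 3 at the top and replicates 2, 4 and 5 at 342, 318 and 325 FPKM below every control.

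The promoters of Acly, Fasn and Thrsp are shown because Acly and Thrsp had the lowest log2 fold changes and Fasn ran with Srebf1 across livers. Each sequence runs 5′ to 3′ on the gene's own strand, from 250 bases before to 50 bases after the start given by RefSeq on GRCm38.p6, and all 3 genes lie on the minus strand. Capitals mark matches, on either strand, to a CCAAT box (CCAAT) or a GC box (GGGCGG). The Acly window is chr11:100527951-100528250, that of Fasn chr11:120824498-120824797 and that of Thrsp chr7:97417501-97417800.
Acly: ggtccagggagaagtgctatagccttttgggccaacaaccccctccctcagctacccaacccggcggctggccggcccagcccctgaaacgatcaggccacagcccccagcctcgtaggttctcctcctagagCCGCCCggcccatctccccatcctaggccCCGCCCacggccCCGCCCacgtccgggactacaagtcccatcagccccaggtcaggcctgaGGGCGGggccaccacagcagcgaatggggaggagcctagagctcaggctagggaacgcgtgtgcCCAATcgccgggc
Fasn: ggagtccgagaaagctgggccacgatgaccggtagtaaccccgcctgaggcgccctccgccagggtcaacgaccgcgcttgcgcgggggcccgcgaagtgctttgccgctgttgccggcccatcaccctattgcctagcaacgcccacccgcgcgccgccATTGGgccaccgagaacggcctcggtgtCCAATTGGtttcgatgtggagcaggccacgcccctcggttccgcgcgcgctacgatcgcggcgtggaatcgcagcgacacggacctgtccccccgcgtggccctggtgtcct
Thrsp: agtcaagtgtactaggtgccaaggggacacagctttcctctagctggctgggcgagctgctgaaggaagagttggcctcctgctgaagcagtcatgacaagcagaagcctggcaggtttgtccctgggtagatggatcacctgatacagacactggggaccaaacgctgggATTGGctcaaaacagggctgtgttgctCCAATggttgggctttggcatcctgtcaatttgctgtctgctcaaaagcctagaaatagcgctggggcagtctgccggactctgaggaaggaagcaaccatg
Acly held 4 GC boxes and 1 CCAAT box close to the start. Fasn held 3 matches to the CCAAT box, of which a pair on opposite strands overlapped, and Thrsp held 2 on opposite strands. Promoters were found for 9 of the 10 genes, 13 windows in all, since Me1, Mlxipl and Srebf1 had several starts. A CCAAT box was present in 8 of these 13 windows, against 37.4% of 32851 promoters, and a GC box in 6, against 35.7%. The sterol regulatory element that SREBP binds (searched as TCACNCCAC) and the E-box (CACGTG) were each found in 1 of the 13 windows, both of Mlxipl, against 1.24% and 7.15% of all promoters. A match describes these letters only.

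Acly encodes ATP citrate lyase, which makes cytosolic acetyl-CoA from citrate, the first step of the pathway. It occupies chromosome 11, positions 100476353 to 100528000 (GRCm38, minus strand) and contains the microRNA gene Mir7116 within its bounds. In replicate order, as for all series of values here, Acly was at 41.8, 31.6, 40.6, 37.5 and 38.9 FPKM in the ASK1f/f replicates and at 39.8, 24.0, 18.5, 21.7 and 28.3 FPKM in the ASK1+hep replicates. Of the 5 ASK1+hep livers, 4 were below the lowest control, while replicate 1 lay among the controls. Means were 38.1 ± 3.96 FPKM and 26.5 ± 8.28 FPKM (SD, n = 5 each), 1.44-fold higher in ASK1f/f. The log2 fold change was -0.55 (SE 0.18, 95% interval -0.94 to -0.16, where SE is the standard error), with an unadjusted p = 0.00967 and an adjusted p = 0.812 over all genes (limma). Tested exactly by two-sided permutation over the 252 splits of the livers, p was 0.0317, where 0.00794 is the smallest p that 5 livers against 5 allow. Such tests were run without adjustment for each of the 10 genes, Map3k5, Fgf21 and the pathway genes named below for their low p. The difference did not pass adjustment over all genes. Leaving out ASK1+hep replicate 3, the lowest liver, gave -0.44, and leaving out the library labelled ASK1f/f replicate 5 gave -0.54. Among the 8 livers whose sample title begins with CC it was -0.67. The titles of replicate 1 of each genotype begin with SN, and what these letters mean is not given in the sources used here.

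Acaca encodes acetyl-CoA carboxylase 1, which forms malonyl-CoA and commits carbon to fatty acid synthesis. The gene occupies chromosome 11, positions 84129672 to 84401651 (plus strand) and overlaps the annotated genes Gm11437 and Gm37391. It was at 5.38, 4.56, 3.58, 4.87 and 6.04 FPKM in the ASK1f/f replicates and at 5.85, 4.12, 5.02, 4.26 and 4.72 FPKM in the ASK1+hep replicates. All ASK1+hep values lay within the control range. With a log2 fold change of -0.016 (SE 0.13, 95% interval -0.30 to 0.27, limma adjusted p = 0.981), Acaca had the smallest difference of the 10 genes, and its sign turned when some single livers were left out.

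Fasn encodes fatty acid synthase, the multi-enzyme chain that assembles palmitate. It occupies chromosome 11, positions 120805846 to 120824547 (minus strand), with no overlapping annotated gene. Fasn was at 46.8, 34.8, 31.0, 37.9 and 39.1 FPKM in the ASK1f/f replicates and at 43.2, 36.3, 65.1, 38.1 and 24.4 FPKM in the ASK1+hep replicates. ASK1+hep replicates 3 and 5 were the highest and the lowest of all 10 livers, and the other ASK1+hep livers lay among the controls. Accordingly, means were close, at 37.9 ± 5.89 FPKM and 41.4 ± 14.9 FPKM (SD, n = 5 each), with a wider spread in ASK1+hep livers. Limma gave a log2 fold change of 0.067 (SE 0.21, 95% interval -0.40 to 0.54, adjusted p = 0.952). Without ASK1+hep replicate 3 it was -0.11.

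Me1, cytosolic malic enzyme, supplies NADPH for chain assembly. It occupies chromosome 9, positions 86581371 to 86695953 (minus strand) and overlaps Gm38230 and the antisense gene A330041J22Rik, whose reads could be counted with it, since it is not stated whether counting used strand. Me1 was at 54.7, 56.8, 40.0, 52.4 and 61.1 FPKM in the ASK1f/f replicates and at 66.0, 45.6, 82.4, 50.2 and 52.9 FPKM in the ASK1+hep replicates. Replicates 1 and 3 of ASK1+hep were above every control and the other 3 were within the control range. This amounted to a log2 fold change of 0.14 (SE 0.17, 95% interval -0.23 to 0.52, limma adjusted p = 0.857), and to 0.019 without ASK1+hep replicate 3.

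Scd1, stearoyl-CoA desaturase 1, converts saturated to monounsaturated fatty acids and is the main desaturase of mouse liver. In the deposited table it spans 44394451 to 44407709 on the minus strand of chromosome 19. Scd1 was at 2284, 1286, 638 and 2456 FPKM in ASK1f/f replicates 1 to 4 and at 1895 FPKM in ASK1f/f replicate 5. The ASK1+hep replicates had Scd1 at 2519, 686, 1502, 2047 and 1896 FPKM. Low livers occurred in both genotypes, ASK1f/f replicate 3 and ASK1+hep replicate 2, and the lowest and highest of the 10 livers differed 3.95-fold. The spread of Scd1 within genotype (residual SD of 0.76 on the log2 scale) exceeded that of 98.9% of the genes tested, on a scale that compresses low genes. Between 42881 and 207772 reads per liver lay on Scd1, so that counting error was small. Its log2 fold change was 0.041 (SE 0.42), and the 95% interval from -0.88 to 0.96 allowed differences of either sign (limma adjusted p = 0.985).

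Elovl6 elongates palmitate to stearate. It occupies chromosome 3, positions 129532355 to 129638495 (plus strand) and overlaps Gm43072 and the antisense gene Gm35986. Elovl6 was at 11.5, 12.8, 13.0, 13.3 and 14.1 FPKM in the ASK1f/f replicates and at 19.8, 12.7, 31.9, 11.0 and 10.6 FPKM in the ASK1+hep replicates. Controls lay in a narrow range, whereas ASK1+hep livers fell above it (replicates 1 and 3), within it (replicate 2) and below it (replicates 4 and 5). The SD was 0.934 FPKM for controls against 9.00 FPKM for ASK1+hep livers (n = 5 each). Its log2 fold change of 0.27 (SE 0.25, 95% interval -0.28 to 0.82, limma adjusted p = 0.832) was the highest of the 10 genes, and it was 0.023 without ASK1+hep replicate 3.

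Pnpla3 encodes a lipid droplet protein that responds to SREBP-1c and whose human variant is the best known genetic risk factor for fatty liver. It occupies chromosome 15, positions 84167837 to 84187236 (plus strand), overlapping Mir6392, Gm49513 and Gm20369. Only 3 to 41 reads per liver fell on Pnpla3, the fewest of the 10 genes, so its FPKM values carry the most counting error for their level. It was at 1.35, 1.03, 0.130, 1.74 and 0.420 FPKM in the ASK1f/f replicates and at 0.720, 0.450, 0.938, 0.525 and 0.422 FPKM in the ASK1+hep replicates. The control livers held both the highest and the lowest values, with all ASK1+hep livers between them. At a log2 fold change of -0.20 (SE 0.21, 95% interval -0.67 to 0.27), the limma adjusted p was 0.842. Leaving out single livers moved it from -0.38 (without ASK1f/f replicate 3) to -0.056 (without ASK1f/f replicate 4), and quality weights gave -0.49. The 1 added to FPKM compresses values this low, and adding 0.1 instead gave -0.25 (limma unadjusted p = 0.627, against 0.366).

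Thrsp, also called Spot14, is a small regulator of lipogenesis induced by thyroid hormone and carbohydrate. It occupies chromosome 7, positions 97412938 to 97417730 (minus strand) with no overlapping annotated gene. Thrsp was at 271, 286, 370, 315 and 171 FPKM in the ASK1f/f replicates and at 241, 110, 654, 99.5 and 128 FPKM in the ASK1+hep replicates. ASK1+hep replicates 2, 4 and 5 were below every control, replicate 1 was below all controls except ASK1f/f replicate 5, and replicate 3 was the highest of the 10 livers. The means were 282 ± 73.1 FPKM and 246 ± 235 FPKM (SD, n = 5 each). On the log2 scale the difference was -0.56 (SE 0.45, 95% interval -1.55 to 0.44, limma adjusted p = 0.817), and the exact two-sided permutation test gave p = 0.341. The value varied with the livers included, at -0.33 without ASK1+hep replicate 4, -0.37 without ASK1+hep replicate 2 and -1.01 without ASK1+hep replicate 3. Without ASK1+hep replicate 3 the mean of ASK1+hep livers was 145 ± 65.0 FPKM (SD, n = 4). The SE with limma was then 0.28 and the unadjusted p = 0.00384. In that comparison, 2.19% of all genes tested were lower and 2.35% higher at an unadjusted p under 0.05, and the adjusted p of Thrsp was 0.792, within a range of 0.505 to 0.921 over all alternatives. Within genotype, the residual SD of Thrsp on the log2(FPKM + 1) scale exceeded that of 99.3% of the genes tested. That rank includes ASK1+hep replicate 3, and the scale compresses low genes.

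Srebf1 encodes SREBP-1, and its SREBP-1a and SREBP-1c transcripts were not separated in these values. It occupies chromosome 11, positions 60199089 to 60222581 (minus strand) and overlaps Rai1, Mir6921 and Mir6922. Srebf1 was at 52.8, 45.8, 41.0, 49.0 and 41.7 FPKM in the ASK1f/f replicates and at 47.4, 37.4, 59.6, 42.9 and 30.1 FPKM in the ASK1+hep replicates. As for Fasn, ASK1+hep replicate 3 was the highest and replicate 5 the lowest liver. Genotypes differed by a log2 fold change of -0.11 (SE 0.16, 95% interval -0.47 to 0.25, limma adjusted p = 0.883). Without ASK1+hep replicate 3 this was -0.23 and without ASK1+hep replicate 5 it was 0.0092.

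Mlxipl encodes ChREBP, the glucose-responsive partner of SREBP-1c in this pathway. It occupies chromosome 5, positions 135089890 to 135138382 (plus strand), with the antisense gene Gm43500 in its bounds. Mlxipl was at 63.4, 58.0, 57.5, 64.2 and 68.1 FPKM in the ASK1f/f replicates and at 56.5, 71.1, 43.7, 49.4 and 45.5 FPKM in the ASK1+hep replicates. As for Acly, 4 of the 5 ASK1+hep livers were below the lowest control, and here the exception was replicate 2, the highest of all 10 livers. The means were 62.2 ± 4.48 FPKM and 53.2 ± 11.1 FPKM (SD, n = 5 each). Limma gave a log2 fold change of -0.24 (SE 0.14, 95% interval -0.54 to 0.057, adjusted p = 0.812), and the exact two-sided permutation test gave p = 0.111. It was -0.35 without ASK1+hep replicate 2 and -0.18 without replicate 3.

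**Figure D2:**
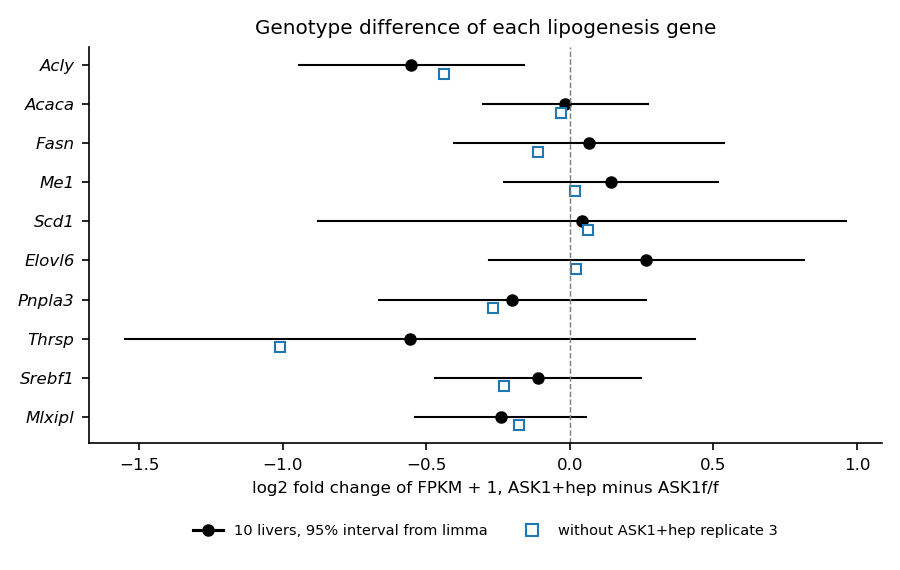
Log2 fold change of FPKM + 1, ASK1+hep minus ASK1f/f, for each of the 10 genes (x axis), from all 10 livers with the 95% interval from limma (black) and without ASK1+hep replicate 3 (open blue squares). The interval of Acly alone lies wholly below 0, before any adjustment, and the value of Thrsp moves from -0.56 to -1.01.

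The 10 genes did not all stand together across livers. ASK1+hep replicate 3 was the highest liver for 5 of them, Fasn, Me1, Elovl6, Thrsp and Srebf1, and the lowest for 2, Acly and Mlxipl. ASK1+hep replicate 5 was the lowest liver for Fasn, Elovl6 and Srebf1, and ASK1f/f replicate 3 was the lowest for Acaca, Me1, Scd1 and Pnpla3. Averaged over the 10 genes as z-scores, ASK1+hep replicate 3 (0.72) was the highest liver and ASK1+hep replicate 5 (-0.79) the lowest. Controls came close to both ends. ASK1f/f replicate 1 (0.57) stood beside ASK1+hep replicate 1 (0.58), and ASK1f/f replicate 3 (-0.64) beside ASK1+hep replicate 2 (-0.64). Most genes followed this average over the 10 livers, each gene being part of the average. Pearson r was 0.85 for Srebf1, 0.79 for Fasn, 0.75 for Me1, 0.74 for Acaca and 0.71 for Pnpla3. It was 0.63 for Thrsp, 0.62 for Elovl6 and 0.57 for Scd1. Acly (0.22) and Mlxipl (0.089), both lowest in ASK1+hep replicate 3, followed it least. Outside the list, the genes most like the average among 13296 genes were Ephb2 (r = 0.93), Pmp22 (0.92), Crtc1 (0.91), Unc13a (0.90) and Gm3571 (0.90), over 10 livers that share their depth and composition differences. Of these, Ephb2 did not exceed 0.107 FPKM in any liver.

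**Figure D3:**
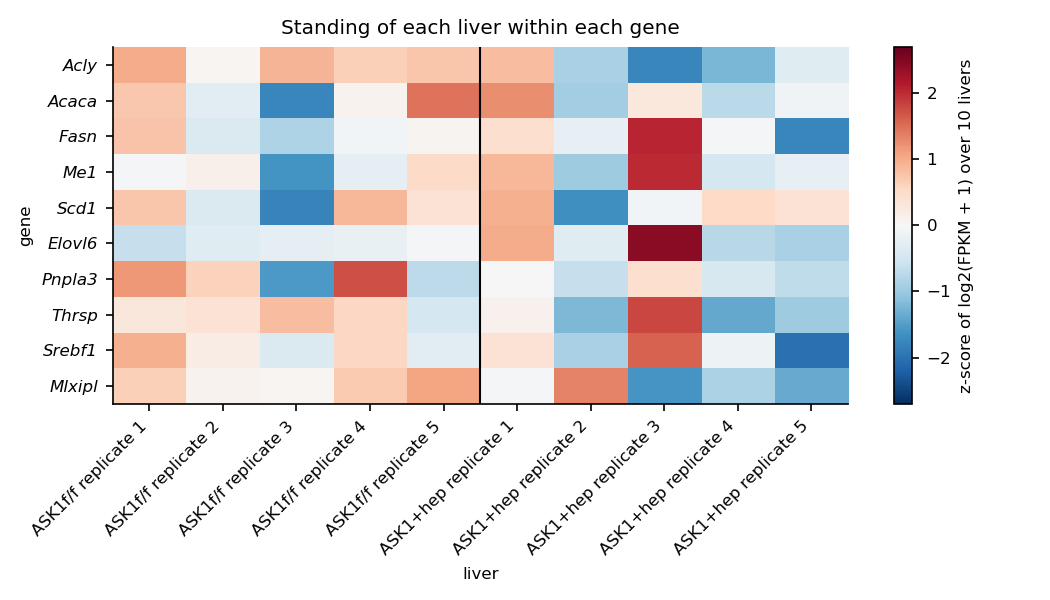
Z-scores of log2(FPKM + 1) over the 10 livers (color) for each gene (rows) in each liver (columns), with ASK1f/f livers left of the line and ASK1+hep livers right of it. ASK1+hep replicate 3 is high for Fasn, Me1, Elovl6, Thrsp and Srebf1 but low for Acly and Mlxipl, and the mean over the 10 genes is highest there (0.72) and lowest in ASK1+hep replicate 5 (-0.79).

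Because Srebf1 and Mlxipl encode transcription factors of the pathway, their levels were set against those of the other genes across livers, 17 relations in all. Over all 10 livers only the relation of Srebf1 to Fasn passed, with Pearson r = 0.90 over 10 livers (permutation test with 100000 resamples, p = 0.00126, adjusted p = 0.0214 over 17 relations) and Spearman rho = 0.79 (permutation p = 0.00914, adjusted p = 0.0777). After removing the genotype means, r was 0.95 (exact permutation within genotype, adjusted p = 0.0159). Part of it rested on the ends. Leaving out ASK1+hep replicates 3 and 5, which lay farthest from the median of Srebf1, gave r = 0.65 (exact permutation p = 0.0788, adjusted p = 0.447), short of the adjusted threshold. With fewer livers and a narrower range of Srebf1, this cannot decide whether the relation holds among the rest. It also missed the adjusted threshold by the exact permutation test without ASK1f/f replicate 1 (r = 0.89, adjusted p = 0.103), ASK1+hep replicate 3 (r = 0.86, adjusted p = 0.0764) or ASK1+hep replicate 5 (r = 0.83, adjusted p = 0.0856) alone. ASK1+hep replicates 3 and 5 also had opposite deviations by GC content and length, and after correction for both r was 0.82 (permutation adjusted p = 0.0450). Among the 8 livers with CC titles r was 0.89 and rho 0.67 (exact permutation p = 0.0133, adjusted p = 0.172), and SN titles marked only 2 livers. Srebf1 and Thrsp had r = 0.73 (rho 0.58, permutation adjusted p = 0.130), and Srebf1 and Pnpla3 had r = 0.64 (rho 0.79, permutation adjusted p = 0.249), of which the latter passed only after removal of the genotype means (r = 0.62, exact permutation adjusted p = 0.0159).

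For Acly and Srebf1 r was -0.016 (rho 0.079, permutation adjusted p = 0.966). This value depended on ASK1+hep replicate 3, since r was 0.51 without it (rho 0.48, exact permutation adjusted p = 0.546) and 0.54 without ASK1+hep replicates 3 and 5 (rho 0.38, exact permutation adjusted p = 0.497). The highest r of Acly over all livers was with Mlxipl, 0.56 (rho 0.37, permutation adjusted p = 0.267), and it was 0.30 after removal of the genotype means. With a liver left out it ran from 0.33 (without ASK1+hep replicate 3) to 0.84 (without ASK1+hep replicate 2). Without ASK1+hep replicate 2, the liver highest in Mlxipl, it passed (rho 0.62, exact permutation adjusted p = 0.0471). None of the 8 relations of Mlxipl passed over all 10 livers.

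**Figure D4:**
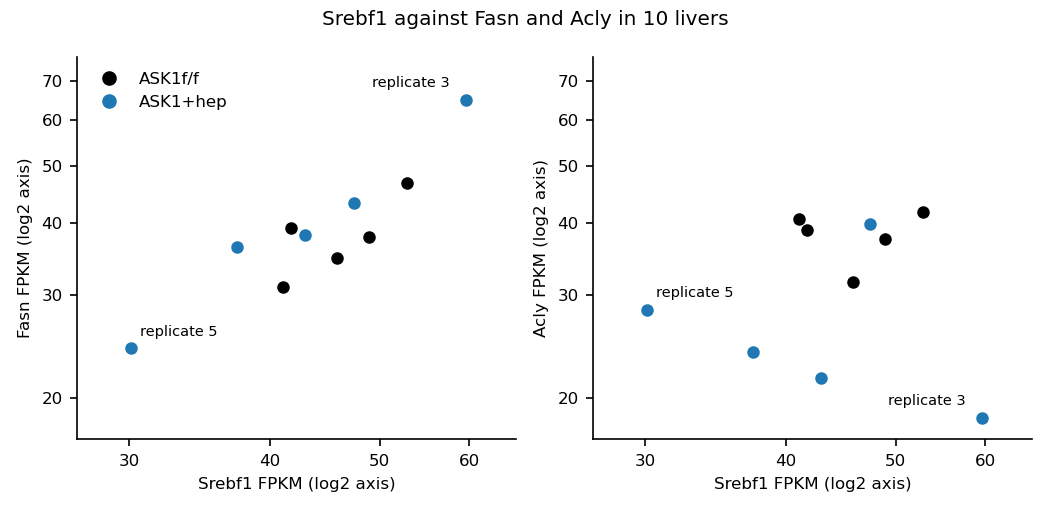
FPKM of Srebf1 (x axes) against Fasn (left) and Acly (right), on log2 axes, in each liver of ASK1f/f (black) and ASK1+hep (blue) mice. Fasn runs with Srebf1 (r = 0.90 over 10 livers), with ASK1+hep replicates 3 and 5 at both ends, whereas for Acly r is -0.016 over 10 livers and 0.51 without ASK1+hep replicate 3.

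Of 62 other genes of fatty acid and triglyceride synthesis, 61 passed the filter on low reads and the elongase gene Elovl7 did not. None passed the adjusted threshold (0 of 61), and 41 were higher and 20 lower in ASK1+hep livers, with a median log2 fold change of 0.069, where 48.0% of all genes tested were higher. This balance was not stable, since 31 of 61 were higher without ASK1+hep replicate 3 and 29 of 61 with scaling by all reads. By role, 9 of 11 genes of elongation and desaturation and 14 of 18 of transcriptional and post-translational control were higher, against 3 of 8 of carbohydrate entry. Genes of acyl activation and triglyceride synthesis were higher in 8 of 12, those of malonyl-CoA metabolism in 3 of 4, those of NADPH supply in 3 of 6 and those of acetyl-CoA supply in 1 of 2. At an unadjusted p under 0.05 there were 3 higher genes, Elovl3, Mogat1 and Pparg, and 1 lower gene, Pklr, together 4 of 61 where 5.77% of all genes tested were past it in either direction. This count was 10 of 61 with the replicate block (6.61% of all genes), 9 without ASK1+hep replicate 5 (13.0%) and 8 without ASK1+hep replicate 1 (8.85%). The genes described next were picked for the lowest unadjusted p among the 61, so their own p-values are not adjusted for that choice unless given as adjusted over all genes.

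Pklr encodes the pyruvate kinase of liver, which feeds glycolytic carbon toward citrate and is a known target of ChREBP. It was at 107, 71.9, 71.4, 70.8 and 56.4 FPKM in the ASK1f/f replicates and at 53.7, 34.9, 51.8, 44.5 and 42.1 FPKM in the ASK1+hep replicates. Every ASK1+hep liver was below every control, which held for 0.466% of all genes tested. Means were 75.5 ± 18.7 FPKM and 45.4 ± 7.62 FPKM (SD, n = 5 each), 1.66-fold higher in ASK1f/f. Its log2 fold change of -0.71 (SE 0.17, 95% interval -1.08 to -0.33) had a limma adjusted p = 0.712. The difference was of similar size without the library labelled ASK1f/f replicate 5 (-0.80), without ASK1+hep replicate 3 (-0.76) and among the CC livers (-0.64).

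The other lower genes named by the rule were G6pdx, which encodes the entry enzyme of the pentose phosphate pathway, and Acss2, which makes acetyl-CoA from acetate. G6pdx averaged 1.49 ± 0.173 FPKM in controls and 1.16 ± 0.290 FPKM in ASK1+hep mice (SD, n = 5 each), a log2 fold change of -0.21 (limma adjusted p = 0.812). Acss2 averaged 21.7 ± 6.24 and 15.6 ± 5.09 FPKM, a log2 fold change of -0.46 (limma adjusted p = 0.812). Both overlapped between genotypes.

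On the higher side, Pparg, a lipogenic nuclear receptor usually low in liver, was at 2.39, 3.18, 2.31, 3.16 and 3.83 FPKM in the ASK1f/f replicates and at 3.57, 4.09, 7.42, 3.76 and 4.65 FPKM in the ASK1+hep replicates. Every ASK1+hep liver was above 4 of the 5 controls, and 3 of them also exceeded the library labelled ASK1f/f replicate 5. Limma gave 0.50 on the log2 scale (SE 0.17, adjusted p = 0.812). Elovl3, an elongase of very long chains, was at 63.7, 63.9, 76.5 and 61.0 FPKM in ASK1f/f replicates 1 to 4 and at 157 FPKM in ASK1f/f replicate 5. The ASK1+hep replicates had Elovl3 at 104, 162, 126, 114 and 136 FPKM. The control within the range of the ASK1+hep livers was the library with the highest Map3k5 value. With it, Elovl3 differed by 0.69 on the log2 scale (SE 0.24, limma adjusted p = 0.812). Without it, the difference was 0.93 with limma (SE 0.15, unadjusted p = 6.25e-05), and the adjusted p of 0.166 was the lowest over all alternatives, which reached up to 0.998. Mogat1, a monoacylglycerol acyltransferase, ranged from 0.538 to 1.29 FPKM in controls and measured 1.54, 1.69, 6.15, 1.78 and 1.26 FPKM in the ASK1+hep replicates. Its log2 fold change was 0.73 (limma adjusted p = 0.812), and 0.43 without ASK1+hep replicate 3.

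**Figure D5:**
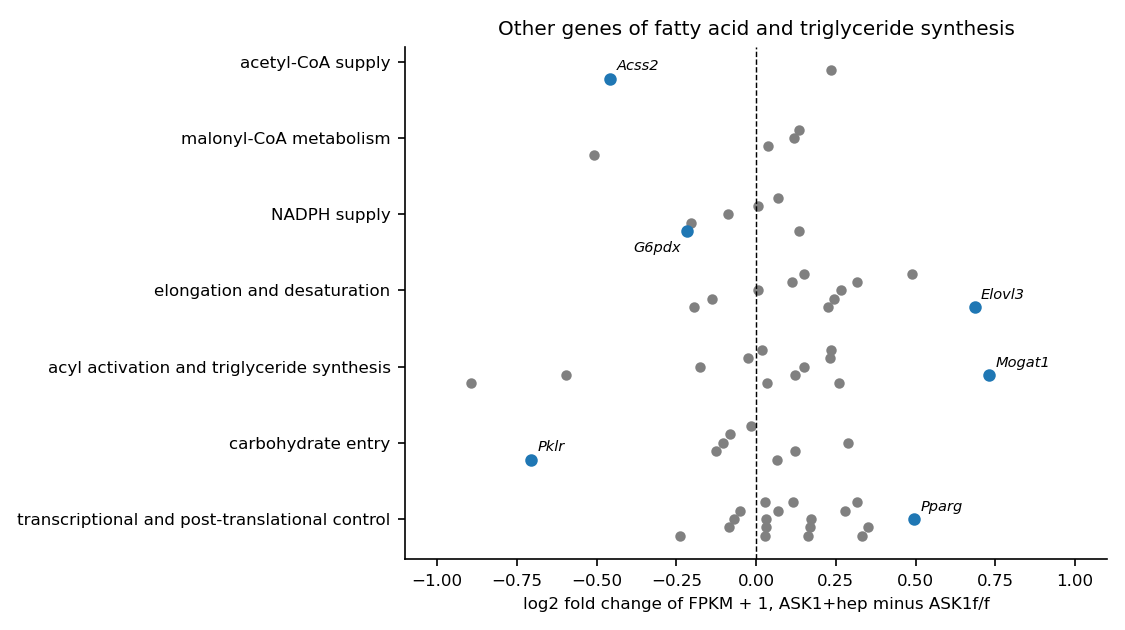
Log2 fold change of FPKM + 1, ASK1+hep minus ASK1f/f (x axis), of 61 other genes of the pathway (points), by role (rows). The 6 genes in blue have the lowest unadjusted p in each direction, and none of the 61 passes the adjusted threshold.

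Fgf21, the stress hormone whose liver expression the study followed, had a log2 fold change of 2.06 (SE 0.32, limma adjusted p = 0.355, exact permutation p = 0.00794), beyond the range of the lipogenesis genes. Controls had 2.46 to 4.74 FPKM and ASK1+hep livers 7.40 to 30.1 FPKM, of which replicate 3 was the highest.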

How the data were processed

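The deposited table held FPKM values per gene for 10 livers, which the authors derived from poly-A RNA libraries cleaned with fastp (per the labels), mapped with Hisat2 and counted with FeatureCounts. Tool versions, genome build and strand setting are not given in the sources used here. The authors compared genotypes with DESeq2 on counts, which was not run here. Reads recovered from FPKM served for depth, the filter on low reads, scaling by all reads and limma-voom. FPKM times gene length gave whole reads for 100% of values (within 0.01 reads), hence the depth of 13367742 to 16163378 reads. Depths and read counts are given per library without an interval, whereas the 95% intervals rest on the spread among livers.

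Genotypes and replicate numbers came from the labels. A gene was kept if 5 or more livers had 10 or more reads after scaling libraries to a common total and its reads summed to 15 or more. The 13306 genes kept were log-transformed as log2(FPKM + 1) and compared two-sided with limma 3.58.1 (R 4.3.3), with variances moderated along a mean trend and p-values adjusted by Benjamini-Hochberg. This scale understates changes of low genes. Each of the 10 genes, Map3k5, Fgf21 and the named pathway genes was also compared by exact permutation. The genes and lists were chosen with earlier results of these data known. Named genes were the 10, Map3k5, Fgf21, up to 3 higher and 3 lower pathway genes of lowest p, the 5 genes most like the average, and markers. Elovl7 was named after its value was seen. Scripts were tested on simulated data.

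Coordinates follow the table, whose 54409 genes found in GENCODE M21 (GRCm38) had the same positions in 98.3%. Promoters came from RefSeq. Alternatives were other filters, another pseudocount (0.1), limma-voom with and without quality weights, scaling by all reads, the replicate block, the title prefix and each liver left out. A correction for GC content and length (splines with 5 degrees of freedom), a comparison with no mean-variance trend and correlations within the CC title prefix were chosen after seeing the data.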

Additional observations from a re-analysis of the deposited data

Results flagged for a closer look

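Among 36 groups of 5 livers examined, a single liver stood far from the other 4 in 5 cases, its gap to the nearest liver being over 0.71 of the whole range of its group. A rate of about 1 in 20 groups by chance would hold for independent groups of normally distributed values. Here the values were FPKM without log transformation, and the groups were genes measured in the same livers. Some of these genes were picked for a low p. All cases fell on ASK1+hep replicate 3 or the library labelled ASK1f/f replicate 5. The number of cases therefore cannot be set against that rate, and whether it exceeds chance was not tested. For Thrsp, ASK1+hep replicate 3 was at 654 FPKM and the gap was 0.746 of the range. The same liver stood apart for Pparg at 7.42 FPKM (0.721 of the range) and for Mogat1 at 6.15 FPKM (0.893). The library labelled ASK1f/f replicate 5 stood apart for Map3k5 at 19.8 FPKM (0.856) and for Elovl3 at 157 FPKM (0.838).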

How the results depend on the processing

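Under 22 alternatives the number of lipogenesis genes and of pathway genes past the adjusted threshold was 0. Over all genes the number was 1, Fgf21, with quality weights (log2 fold change 2.38) and without ASK1+hep replicate 5 (2.35), and otherwise 0, so leaving out single livers gave 0 to 1. The directions of Acly, Me1, Elovl6, Pnpla3, Thrsp and Mlxipl held under every alternative run, and Pnpla3 could not be compared with at least 10 reads required in every liver. Scaling by all reads gave Fasn -0.011 and Scd1 -0.038, and quality weights gave Scd1 -0.018. Correction for GC content and length gave Acaca 0.024, with and without the replicate block. Leaving out single livers moved Acaca from -0.10 to 0.052 (0.016 without ASK1f/f replicate 1, 0.017 without ASK1+hep replicate 4, 0.026 without ASK1+hep replicate 2, 0.052 without ASK1f/f replicate 5), Scd1 from -0.28 (without ASK1f/f replicate 3) to 0.34 (-0.13 without ASK1+hep replicate 1, -0.050 without 4, -0.023 without 5, and -0.024 without ASK1f/f replicate 2), Fasn from -0.11 to 0.24 and Srebf1 from -0.23 to 0.0092. Me1 ran from 0.019 to 0.23 and Elovl6 from 0.023 to 0.40. The median of the 10 genes ran from -0.21 (without ASK1f/f replicate 3) to -0.018 (without ASK1+hep replicate 5). That of the pathway genes was -0.0053 with scaling by all reads and ran from 0.0030 (without ASK1+hep replicate 3) to 0.13 (without ASK1+hep replicate 5). The number of correlations passing was 2 after removal of genotype means, 0 without the 2 farthest livers, 0 among the CC livers, and 0 to 2 with a liver left out (2, with Mlxipl and Acly, without ASK1+hep replicate 2, and 0 without ASK1f/f replicate 1, ASK1+hep replicate 3 or ASK1+hep replicate 5). The cause was not tested in any of these.

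Genes at an unadjusted p under 0.05 numbered 768, against 1222 with no filter, 1178 without ASK1+hep replicate 1 and 1724 without ASK1+hep replicate 5, and 52.9% of them were higher, against 31.4% with scaling by all reads, which moved the median of all genes from -0.0065 to -0.052. With the replicate block 0 genes passed and 880 had an unadjusted p under 0.05. Same-numbered livers are different animals, and the numbers in their sample titles differ by 1 in 4 of 5 pairs and by 29 in the other. Controls are littermates, but the labels do not say that a number marks a litter. Their deviations correlated at 0.0212 to 0.174 (mean 0.107), over 0.1 in 2 of 5 pairs, against a mean of -0.0275 for differently numbered livers. Of the 10 livers, 6 were closest to their own number. Whether the numbers mark a pairing was not tested, and the main comparison did not use them. The block changed no call at the adjusted threshold, and pathway genes at an unadjusted p under 0.05 numbered 10 of 61 with it, against 4. With 5 livers per genotype, the intervals of Scd1 and Thrsp span about a log2 unit on either side, and Pnpla3 rests on 3 to 41 reads. These limits apply to poly-A RNA and not to enzyme activity.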
